A study of Rattus norvegicus with 5 samples.

Results

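The early response of rat lung to urban dust was set directly against its intermediate response, array against array, with no control array in the comparison. It used 2 of the 5 arrays of the series, each a single-colour oligonucleotide array hybridised with pooled lung RNA. The early array held equal amounts of RNA taken 2, 4 and 6 h after EHC-93, a preparation of particles collected from city air, was instilled into the trachea. The intermediate array held RNA taken 15, 18 and 21 h after the same treatment. A late EHC-93 array (24, 32 and 40 h), a saline sham array (2, 15 and 24 h after instillation of saline) and an array of 3 rats that had not been instilled served to place the values. The labels do not say how many rats each instilled pool came from, and the strain, age and dose were not known here. Each group had 1 array, so a difference between arrays has no replicate check, no error and no p-value, and the pools hide the change within each phase. The sham pool spans the times of all 3 phases, so no control matches the hours of a single phase.

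Inhaled or instilled particles reach the airway lining, the alveolar epithelium and the resident macrophages. Such cells answer within hours by switching on immediate early transcription factors, which need no new protein synthesis, and then chemokines and cytokines that draw leukocytes. Stress proteins, tissue factor and vasoactive peptides belong to the same fast class. Acute phase proteins, complement and the DNA replication genes of repairing tissue are usually slower. A short-lived messenger can therefore be high in the first pool and back at its resting level in the next, which is the contrast read here.

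The values are deposited intensity values, multiplied here by 1 factor per array that set every array to a common median. A scaled intensity of 173, the 40th percentile of all values, served as a floor, and a lower value is written as under the floor. A fold against such a value is a lower bound, written "at least". A gene was counted where it was above the floor on at least 1 of both arrays, which held for 3383 of 4736 genes, and it is called higher or lower at a difference of 2-fold or more, 1 on the log2 scale. A difference in bulk tissue cannot tell more cells of a type from more RNA per cell.

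Of the 3383 genes, 116 were at least 2-fold higher on the early than on the intermediate array, 3.43% of those with a value. Another 76, or 2.25%, were at least 2-fold lower. Over single probe sets, including those without a gene name, 274 of 5628 were higher (4.87%) and 120 were lower (2.13%). Genes thus stood above on the early array in 60.4% of the calls, a share that rose to 71.7% on the values as deposited and to 75.1% when the median ratio of both arrays was set to 0. It fell to 51.5% with the floor at the 20th percentile and to 54.5% with probe sets designed on expressed sequence tags alone. The excess on the early array was greater among large differences, with 28 genes against 11 at 3-fold, 9 against 4 at 4-fold, and 2 against 0 at 8-fold. The median difference over all genes was -0.13 on the log2 scale, and the SD among genes above the floor on both arrays was 0.51. Between sham and untreated, the pair without dust, 57 of 3452 genes were at least 2-fold higher on the sham array (1.65%) and 59 were lower (1.71%), with an SD of 0.38. In that pair 8 and 5 genes passed 3-fold.

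**Figure D1:**
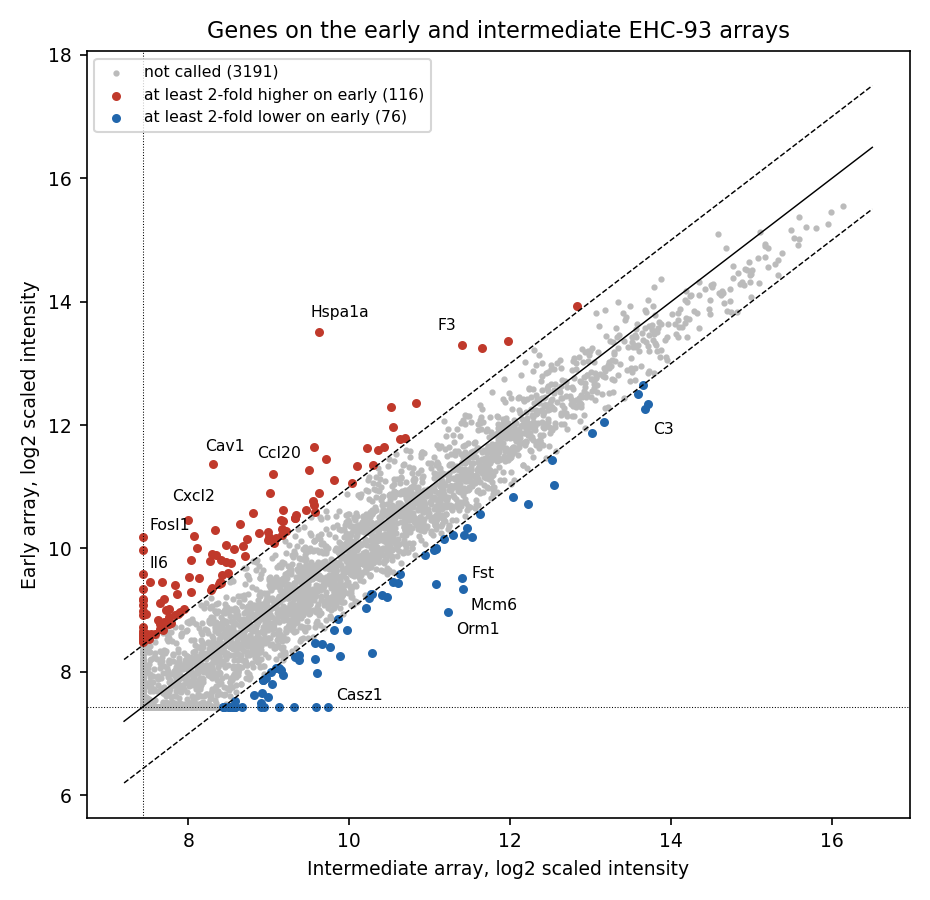
Each point is a gene; the axes give its log2 scaled intensity on the intermediate (horizontal) and early (vertical) array. The solid line marks equal values, dashed lines mark 2-fold, and dotted lines mark the floor. The 116 red genes lie above the upper dashed line and reach far from it, with Hspa1a at 14.8-fold, whereas the 76 blue genes stay nearer to theirs.

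The share of calls differed with brightness. Among genes with a mean log2 value under 9, 7.16% passed 2-fold in either direction, against 6.18% in the pair of sham and untreated. From 9 to 10 the share was 6.99% against 2.55%, and from 10 to 11 it was 5.03% against 1.31%. At 12 or more it was 2.47% against 0.551%. In the dimmest class both pairs thus gave like shares, and the comparison stands further from the pair without dust where signals are brighter. At the threshold, Lbr, Ifngr1 and Sirpa lay just inside with log2 differences of 1.002, 1.005 and 1.017, and Plaa, Uck2 and Ythdf3 just outside with 0.997, 0.997 and 0.996. Among the lower genes Ndst1, Actc1 and Camkk1 lay just inside with -1.002, -1.004 and -1.007, and Msx1, Snrnp70 and Cdc20 just outside with -0.996, -0.995 and -0.991.

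Control probe sets placed along single transcripts, which follow the integrity and labelling of the RNA, differed between both arrays. For beta-actin, the 5′ probe set read 5.97-fold higher on the early array, the middle one 2.13-fold and the 3′ one 1.26-fold. The 5′ signal was 43.1% of the 3′ signal on the early array and 9.07% on the intermediate array, with 19.6%, 14.7% and 24.4% on the late, sham and untreated arrays. For GAPDH the same share was 67.2% on the early and 23.6% on the intermediate array. The late, sham and untreated arrays gave 38.1%, 25.4% and 39.1%. The early and intermediate arrays were thus at opposite ends of the 5 arrays for both transcripts. The 9 bacterial and phage control probe sets read lower on the early array, at 0.337 to 0.670 of the intermediate value. Probe sets designed on coding sequences were higher in 11.1% and lower in 1.09%, whereas those designed on expressed sequence tags (ESTs), which mostly come from 3′ ends, were higher in 2.90% and lower in 2.25%. ESTs read 19.8% of the genes called higher, 42.1% of those called lower and 42.5% of all genes with a value. These values move with the excess on the early array, and their part in the calls was not tested.

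**Figure D2:**
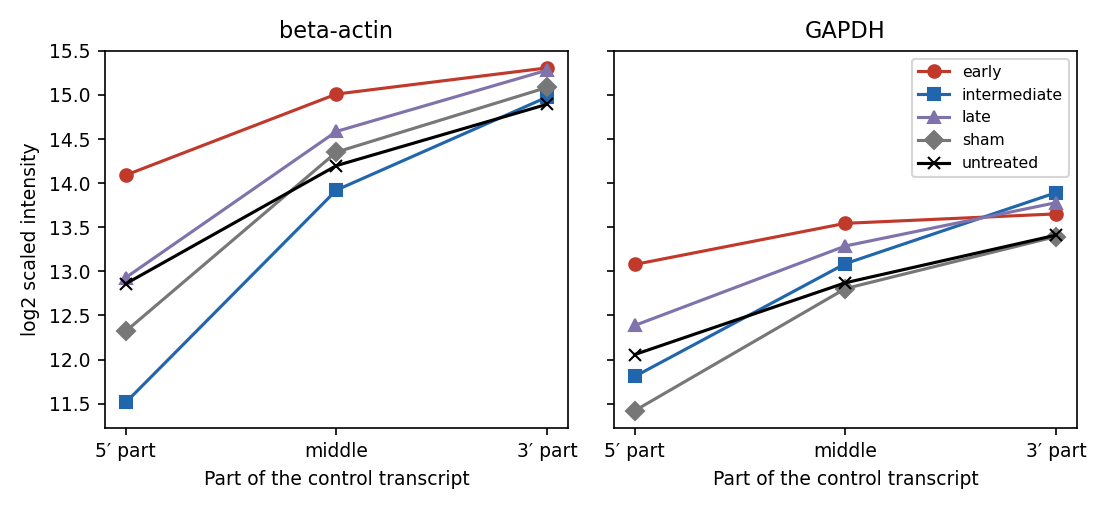
Log2 scaled intensity of the control probe sets at the 5′ part, the middle and the 3′ part of beta-actin (left) and GAPDH (right), 1 line per array. The lines start apart at the 5′ part, where beta-actin reads 17453 on the early and 2923 on the intermediate array, and meet at the 3′ part, at 40542 and 32230.

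Genes called higher were led by Hspa1a, the stress-inducible cytosolic chaperone of the Hsp70 family. Its scaled intensity was 11637 on the early and 788 on the intermediate array, while the late array read 557, sham 615 and untreated 327. That is a 14.8-fold difference, and only the early array stood apart. The probe set may also read the near-identical copy Hspa1b. Next came Cav1, the coat protein of caveolae, with 2655 on the early and 317 on the intermediate array. The late array read 535, the sham array 808 and the untreated array 783. The early array was thus 3.28-fold above sham and the intermediate array was the lowest of the 5, which makes the direct difference of 8.39-fold larger than either step from the controls. Cav1 is read by a single coding sequence probe set, the kind that was more often higher on the early array.

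Transcripts that were under the floor on the intermediate array came next. Fosl1, a Fos family subunit of the AP-1 transcription factor, read 1162 on the early array and was under the floor on the other 4, at least 6.74-fold. Il6, the cytokine that drives the acute phase response, read 1004 and was under the floor on the other 4, at least 5.82-fold. A dimmer probe set of Il6 gave 193 on the early array and under the floor elsewhere. For both genes the pool from 15 to 21 h was below the floor, as were the controls. Cish, a feedback inhibitor of STAT5 signalling, read 769 on the early array and under the floor on the intermediate and late arrays, against 340 on sham and 246 on untreated, at least 4.46-fold. Ltbp2, a protein of the elastic matrix, read 649 against a value under the floor, at least 3.76-fold, with 247 on sham and 293 on untreated. Its intermediate value was thus below both controls.

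Chemokines stood out among the gene lists by the share called. Of 13 with a value, 6 were higher, 0 were lower and the median difference was 0.71, against 3.43% of all genes called higher and a median of -0.13. Counts of the lists that follow stand against the same 3.43% called higher and 2.25% called lower. Cxcl2, a ligand of the neutrophil receptor CXCR2, read 1416 on the early and 256 on the intermediate array, with 180 on the late array and under the floor on both controls, a 5.53-fold difference. Ccl20, which attracts CCR6-bearing dendritic cells and lymphocytes, read 2375 and 531, with 389, 907 and 638 on the late, sham and untreated arrays. Its early value was above both controls and its intermediate value was below both. Cxcl6, another neutrophil attractant, read 877 and 354, with 264, 189 and 327 on the late, sham and untreated arrays. Cx3cl1, the membrane-bound ligand of CX3CR1, read 2221 and 894, with 959, 870 and 948 on those arrays. Ccl3 and Ccl4 are macrophage inflammatory proteins. Ccl4 read 377 on the early and under the floor on the intermediate array, at least 2.18-fold. Ccl3 read 2600 and 1258, with 950, 353 and 377 on the late, sham and untreated arrays, a 2.07-fold difference. It was the single called gene that was at least 2-fold above both controls on both arrays.

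The chemokines that were not called included some of the brightest. Ccl2, the monocyte attractant, read 7097 on the early and 5367 on the intermediate array, against 888 on sham and 812 on untreated. Its direct difference was 0.40 on the log2 scale while both phases lay far above the controls. Cxcl3 read 6109 and 4827, with a difference of 0.34. Cxcl10, the ligand of CXCR3, read 334 and 332, and Ccl11, an eosinophil attractant, read 342 and 332. Cxcl13, which attracts B cells, was the sole member with a negative difference, at -0.79.

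Among cytokines and their antagonists 4 of 12 with a value were higher and 0 were lower, with a median of -0.12 and 7 of the 12 below 0. Besides Il6, the called members were Il1a, Tnf and Csf3. Il1a, an alarm cytokine released by damaged cells, read 1122 and 506, with 533, 430 and 366 on the late, sham and untreated arrays. A further probe set of Il1a gave 707 and 356, a difference of 0.99. Tnf, the macrophage cytokine that activates endothelium, read 363 on the early array and under the floor on the other 4, at least 2.11-fold. Csf3, which drives neutrophil production, read 439 and 216, with 196 on the sham array. Tnf and Csf3 lay close to the floor, in the class where the pair without dust gave like shares of calls. The same class, a mean log2 value under 9, also held Il6, Fosl1, Cish, Ltbp2 and Ccl4, each under the floor on the intermediate array. Il1b did not pass, with 4479 on the early and 3451 on the intermediate array, against 1131 on sham and 692 on untreated.

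Short stretches before the start sites are shown for 4 called genes with a match to a motif of a factor from these lists. The 250 bases before the RefSeq start site, from the rat assembly GRCr8, run 5′ to 3′ on the strand of the gene, with the matches of every motif searched in capitals. Cxcl2 (chr14:17467256-17467505, minus strand) and Il6 (chr4:5894576-5894825, minus strand) hold kappa-B motifs, the sites of NF-kB, and both hold a C/EBP motif. Areg (chr14:17265642-17265891, minus strand) holds a CRE, the cAMP response element, as does Il6. Orm1 (chr5:81788259-81788508, plus strand), among the genes lower on the early array, holds a C/EBP and an AP-1 motif.
Cxcl2: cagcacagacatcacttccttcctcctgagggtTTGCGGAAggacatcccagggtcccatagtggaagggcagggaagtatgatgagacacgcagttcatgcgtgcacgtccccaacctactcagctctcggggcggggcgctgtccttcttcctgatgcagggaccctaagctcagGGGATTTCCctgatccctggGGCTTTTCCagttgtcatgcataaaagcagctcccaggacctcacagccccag
Il6: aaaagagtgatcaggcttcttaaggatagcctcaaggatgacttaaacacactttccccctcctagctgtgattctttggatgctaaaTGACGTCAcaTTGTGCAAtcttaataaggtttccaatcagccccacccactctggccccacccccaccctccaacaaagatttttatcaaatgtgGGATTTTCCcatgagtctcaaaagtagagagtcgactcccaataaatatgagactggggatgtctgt
Areg: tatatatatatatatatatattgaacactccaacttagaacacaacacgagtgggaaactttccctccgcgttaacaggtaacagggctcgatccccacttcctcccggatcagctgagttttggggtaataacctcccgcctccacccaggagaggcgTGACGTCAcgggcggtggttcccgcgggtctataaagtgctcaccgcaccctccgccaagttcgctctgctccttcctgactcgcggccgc
Orm1: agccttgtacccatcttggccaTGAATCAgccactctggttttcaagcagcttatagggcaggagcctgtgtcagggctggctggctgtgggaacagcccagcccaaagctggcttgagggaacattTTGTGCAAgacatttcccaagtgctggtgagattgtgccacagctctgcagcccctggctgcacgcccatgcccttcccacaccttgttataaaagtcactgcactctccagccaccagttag
The kappa-B motif, searched as GGNNTTTCC, starts at -73 and -53 in Cxcl2 and at -67 in Il6. The CRE, TGACGTCA, starts at -162 in Il6 and at -91 in Areg. The C/EBP motif, TTGCNNAA, starts at -217 in Cxcl2, at -152 in Il6 and at -123 in Orm1, with the same 8 letters in Il6 and Orm1, both matched on the opposite strand. The AP-1 motif, TGANTCA, starts at -228 in Orm1.

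Both strands were searched from 250 bases before to 50 after the start, and motifs could overlap. Of the 116 genes called higher, 91 had a promoter in the RefSeq table, and 7 of these (7.69%) held a kappa-B motif, against 6.03% of all 27457 promoters. Of the 46 with a promoter among those also at least 2-fold above both controls on the early array, 6 did, namely Il6, Cxcl2, Ccl20, Cish, Cxcl6 and Bcat1. A CRE lay in 5 of 91 (5.49%), in Il6, Fat1, Areg, Jund and Ppp1r15a, against 1.91% of all promoters. The C/EBP motif lay in 14.3% of the genes called higher, 10.8% of those called lower and 10.5% of all. The AP-1 motif lay in 8.79%, 7.69% and 7.33%, and the heat shock element GAANNTTC in 3.30%, 7.69% and 8.34%. These shares describe letters in a window. The genes were picked for their calls, so no test was made.

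Immediate early transcription factors and their partners held 10 higher and 0 lower genes of 31 with a value, with a median of 0.32. Atf3, a stress-induced factor of the ATF/CREB family, read 3209 on the early and 755 on the intermediate array, with 1124, 878 and 788 on the late, sham and untreated arrays, 4.25-fold. Zfp36, which marks cytokine messengers for decay, read 9704 and 3224, with 4924, 4041 and 3432 on the late, sham and untreated arrays, 3.01-fold. Cebpd, an inflammatory C/EBP factor, read 5250 and 1815, with 1931, 2030 and 965 on the late, sham and untreated arrays. For Atf3 and Zfp36 the intermediate value was below both controls, and for Cebpd it lay between them.

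Myc, a driver of growth, read 1145 and 423, and its other probe set 1099 and 374. Junb, a Jun subunit of AP-1, read 3531 and 1659 on an EST probe set, 2.13-fold, and 1433 and 396 on a coding sequence probe set, 3.62-fold. Ier3, a survival gene of the immediate early class, read 3105 and 1311. Egr2, a zinc finger factor, read 947 and 325, with 479 on sham and 536 on untreated. Crem and Jund were under the floor on the intermediate array, at least 2.81-fold and 2.93-fold. Members that define the class in cultured cells were not called. Fos read 1773 and 1453, Jun 2711 and 2169, and Egr1 14889 and 9250. Their log2 differences were 0.29, 0.32 and 0.69. Nr4a1, Klf4 and Klf6 differed by 0.26, 0.00 and 0.08.

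Genes of cytokine receptor, JAK-STAT and NF-kB feedback held 4 higher and 0 lower of 17, with a median of 0.49. Socs2, a suppressor of cytokine signalling, read 704 and 204, with 355, 237 and 240 on the late, sham and untreated arrays, 3.46-fold. Ifngr1, a chain of the interferon gamma receptor, read 442 and 220 and lay at the threshold. Stat3, the factor downstream of Il6, read 370 on the early array and under the floor on the intermediate, at least 2.15-fold, but its other probe set gave 186 and 242, a difference of -0.38. Nfkbia, the inhibitor that NF-kB itself induces, read 7182 and 4503, with 3279 on sham and 2552 on untreated. Its difference of 0.67 was not called, although its early value was more than 2-fold above both controls.

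MAP kinase phosphatases and growth arrest genes had a median of 0.79, with 2 of 10 called higher and 9 of 10 above 0. Gadd45a, a stress gene that slows the cell cycle, read 1739 and 748, with 761, 834 and 827 on the late, sham and untreated arrays. All 4 of its probe sets passed, from 2.17-fold to 2.70-fold. Errfi1, an inhibitor of EGF receptor signalling, read 3217 and 1385. Dusp1, a phosphatase of p38 and JNK, read 2960 and 1532 and fell short with 0.95. Ppp1r15a, which restarts translation after stress, read 2584 and 1097 on one probe set and 1155 and 269 on another, 2.36-fold and 4.29-fold.

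**Figure D3:**
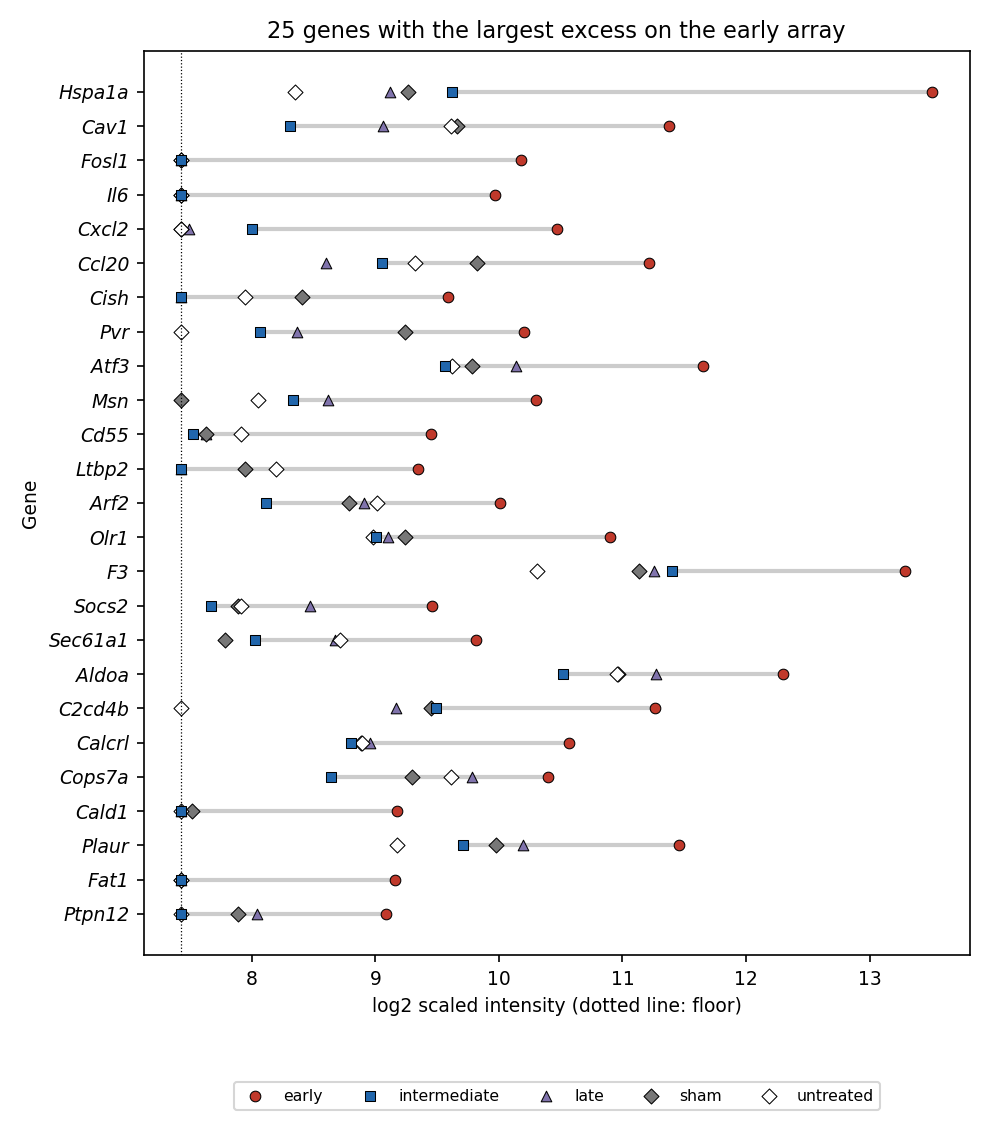
Log2 scaled intensity on all 5 arrays for the 25 genes with the largest excess on the early over the intermediate array; grey bars join both arrays and the dotted line is the floor. The red early point is the rightmost in each of the 25 rows, and the blue intermediate point mostly lies among or left of the late, sham and untreated points.

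Of 17 heat shock protein genes with a value, Hspa1a was the sole called member, and the median was 0.10. Dnajb1, an Hsp40 partner of Hsp70, read 2386 and 1335, a difference of 0.84. Hsph1, a large Hsp70 relative, read 3905 and 2404, against 1121 on sham and 1139 on untreated, so that both phases were above the controls. The constitutive Hsp90ab1 read 20442 and 30166, and the mitochondrial pair Hspd1 and Hspe1 read 5912 and 9903 and 5135 and 7322, with differences of -0.74 and -0.51 that were not called.

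Nrf2 target enzymes, the defence against oxidants and electrophiles, held 1 higher and 0 lower of 26, with a median of -0.05. That count is near the 3.43% of all genes called higher. Hmox1, which degrades heme, read 15565 and 7293, with 4583, 4745 and 1700 on the late, sham and untreated arrays, 2.13-fold on an EST probe set. A coding sequence probe set of Hmox1 read 6190 and 1117, 5.54-fold. The controls themselves lay apart on both probe sets, with 799 on sham and 211 on untreated for the latter. Txnrd1, which keeps thioredoxin reduced, read 8351 and 4654, and Nqo1, a quinone reductase, read 5872 and 4041. Their differences of 0.84 and 0.54 were not called. Sod2, the mitochondrial superoxide dismutase, read 3065 and 1734, against 704 and 815 on the controls, with a difference of 0.82.

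Coagulation, fibrinolysis and protease genes held 5 higher and 1 lower of 20, with a median of 0.21. F3, tissue factor, the trigger of clotting, read 10016 and 2705, with 2443, 2250 and 1269 on the late, sham and untreated arrays, 3.70-fold. Plaur, the urokinase receptor, read 2806 and 837, with 1173, 1009 and 578 on the late, sham and untreated arrays, 3.35-fold. Adam17, the sheddase of Tnf, read 683 and 228, and Timp3, its tissue inhibitor, read 892 and 307. Serpind1, a thrombin inhibitor, read 458 and 198, with 556, 513 and 729 on the late, sham and untreated arrays, so that the early value lay near the controls and the intermediate array was the one that was low. Mmp11, a matrix metalloproteinase, was lower on the early array, with 239 and 498. Cd55, which protects cells from complement, read 700 and 184, with 198, 198 and 241 on the late, sham and untreated arrays, 3.80-fold, while its other probe set gave 278 and 224.

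Vasoactive genes held 4 higher and 0 lower of 24, with a median of 0.27. Edn1, the vasoconstrictor endothelin, read 895 and 340, with 370, 395 and 266 on the late, sham and untreated arrays, 2.63-fold. Hif1a, the oxygen-regulated factor, read 735 and 280, with 364, 289 and 338 on those arrays. Vegfa, the endothelial growth factor, read 3517 and 1589, but the untreated array read 2810, only 1.25-fold below the early value. Calcrl, the receptor of adrenomedullin and CGRP, read 1518 and 448, with 496, 474 and 476 on the late, sham and untreated arrays. A second probe set of Calcrl went the other way, with a value under the floor on the early and 465 on the intermediate array. Nos2, the inducible nitric oxide synthase, read 732 and 682, against 186 and 181 on the controls, with a difference of 0.10.

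Ligands of the EGF receptor were among the higher genes of a growth factor list with 3 higher and 0 lower of 21 and a median of 0.08. Of all genes, 3.43% were called higher. Areg, amphiregulin, read 1068 and 353, with 347 on the late and 268 on the sham array and under the floor on the untreated array, 3.03-fold. Hbegf, its heparin-binding relative, read 764 and 341, with 434 on sham and 299 on untreated. Fgfr1, a fibroblast growth factor receptor, read 1387 and 577, while the dimmest of its 3 probe sets gave a value under the floor and 275. Further leading genes were Olr1, a scavenger receptor for oxidised lipoprotein (1912 and 515, 3.71-fold), Msn, the membrane to actin linker moesin (1263 and 322), Pvr, the nectin-like poliovirus receptor (1179 and 268), and Sec61a1, the translocon subunit (898 and 261). Pvr read 606 on sham and under the floor on untreated, so its early value was not 2-fold above both controls. Aldoa, a glycolytic aldolase, read 5030 and 1469, with 2467, 1997 and 1982 on the late, sham and untreated arrays.

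Of the 116 higher genes, 61 were at least 2-fold above both controls on the early array. In 59 of these the intermediate array was within that range of at least 1 control, in Ccl3 it too was above both, and in Cav1 it was below both. In 54 genes neither array was 2-fold from both controls, and in Serpind1 the intermediate array alone was, below them. The early array gave the highest of all 5 values in 111 of 116 (95.7%), against 22.3% of all genes with a value. The intermediate array gave the lowest value in 48 (41.4%), against 10.8%, and both held in 43 (37.1%), against 3.99%. The contrast chose these genes, so the positions describe them and test nothing. The late array lay nearer to the intermediate than to the early array in 98 of 116 (84.5%), against 59.5% of all genes with a value.

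Genes lower on the early array, that is with more signal in the pool from 15 to 21 h, were fewer and their differences smaller. The list was led by Casz1, a zinc finger factor, under the floor on the early array and 849 on the intermediate, at least 4.92-fold. The late array read 667 and the untreated array 732, with sham under the floor, so both controls lay far apart too. Orm1, the acute phase protein orosomucoid, read 499 on the early and 2399 on the intermediate array, with 1201, 277 and 187 on the late, sham and untreated arrays, 4.80-fold. The intermediate value was 8.65-fold above sham and the early value 1.80-fold. Ggt1, which starts glutathione breakdown outside the cell, read 766 on the intermediate array and under the floor on the other 4, at least 4.44-fold. Nptx2, a secreted pentraxin best known from synapses, read 315 and 1249, with 1180, 495 and 538 on the late, sham and untreated arrays, but its other probe set gave 175 and 174. Gsk3b, a kinase of glycogen and Wnt signalling, read 295 and 759, and its other probe set 229 and 208. Casz1, Ggt1 and Gsk3b had a mean log2 value under 9, where the pair without dust gave like shares of calls. Of the 29 lower genes with another probe set that had a value, 8 had none in the same direction.

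Orm1 was the sole called member of 22 acute phase and innate effector genes, whose median was -0.05. Lcn2, which binds bacterial siderophores, read 30982 and 49008, with 38177, 20334 and 5976 on the late, sham and untreated arrays, a difference of -0.66. Lyz2, lysozyme, read 44778 and 65142. Other members stood higher on the early array without being called, among them Fgg, a fibrinogen chain, with 9539 and 5011, Cd14, the endotoxin co-receptor, with 1455 and 798, and S100a8, a calprotectin subunit, with 2121 and 1311. The list was thus split between both arrays.

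Complement genes held 2 lower and 1 higher of 16, with a median of -0.26, against 2.25% of all genes called lower and 3.43% called higher. C3, the central component, read 4908 and 13125, with 8473, 4893 and 4081 on the late, sham and untreated arrays, 2.67-fold. A second probe set of C3 gave 5539 and 6955, a difference of -0.33, so the size rests on the probe set. C1s, a protease of the classical pathway, read 1185 and 2505, with 1791, 1107 and 1018 on the late, sham and untreated arrays. C4bpa, a soluble inhibitor, read 1675 and 3111, against 1104 and 564 on the controls, a difference of -0.89. For all 3 the early value was within 2-fold of the sham value, but for C4bpa it was 2.97-fold above the untreated value.

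Cell cycle and replication genes held 2 lower and 0 higher of 28, against 2.25% of all genes called lower. Their median was -0.46, with 23 members below 0. Mcm6, a subunit of the replicative helicase, read 653 and 2716, with 2170, 971 and 1003 on the late, sham and untreated arrays, 4.16-fold. Its other probe sets gave 198 and 590 and 647 and 1873, so all 3 passed. Mcm5, of the same helicase, read 223 and 526. Outside the list, Dut, which keeps uracil out of DNA, read 685 and 2152, and Rfc4, a clamp loader subunit, read 180 and 478. Pcna, the sliding clamp, read 3294 and 5326, with 4519 on the late array and 2978 and 3130 on the controls, and Top2a, the topoisomerase of dividing cells, read 765 on the early, 1420 on the intermediate array and 1998 on the late one. Mitotic genes such as Cdk1 (244, 377 and 646) and Ccnb1 (250, 430 and 600) read highest on the late array. None of these last 4 passed 2-fold between early and intermediate. With EST probe sets left out the list median was -0.19.

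Genes of the TGF-beta, activin and follistatin group went both ways, 3 higher and 3 lower of 22, with a median of 0.04. Fst, follistatin, which binds activin, read 735 and 2710, with 1347, 871 and 845 on the late, sham and untreated arrays, 3.69-fold. Its second probe set gave 486 and 2763. Tgfb3 read 353 and 761, but its other probe set gave 570 and 489, a difference of 0.22. Bmp3 read 201 and 482, and its other probe set a value under the floor and 192. The higher members were Ltbp2 and the signal transducers Smad1 (371 and 182) and Smad4 (657 and 314). Tgfb1 read 1269 and 660 and missed with 0.94.

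Chaperones of the endoplasmic reticulum had a median of -0.52, with 1 lower, 1 higher and 13 of 19 below 0. Pdia6, a disulfide isomerase, read 3758 and 8290, with 4746, 3539 and 3970 on the late, sham and untreated arrays, 2.21-fold. Hspa5, the main Hsp70 of this compartment, read 6876 and 9826, against 4076 and 3594 on the controls, and Canx, calnexin, read 7520 and 13481. Sec61a1 was the higher member. The mean over all probe sets of a gene turned the list median to 0.12, so its direction rests on the choice of probe set. Dnajb9, a stress-induced partner of Hspa5, went the other way with 1113 and 676.

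**Figure D4:**
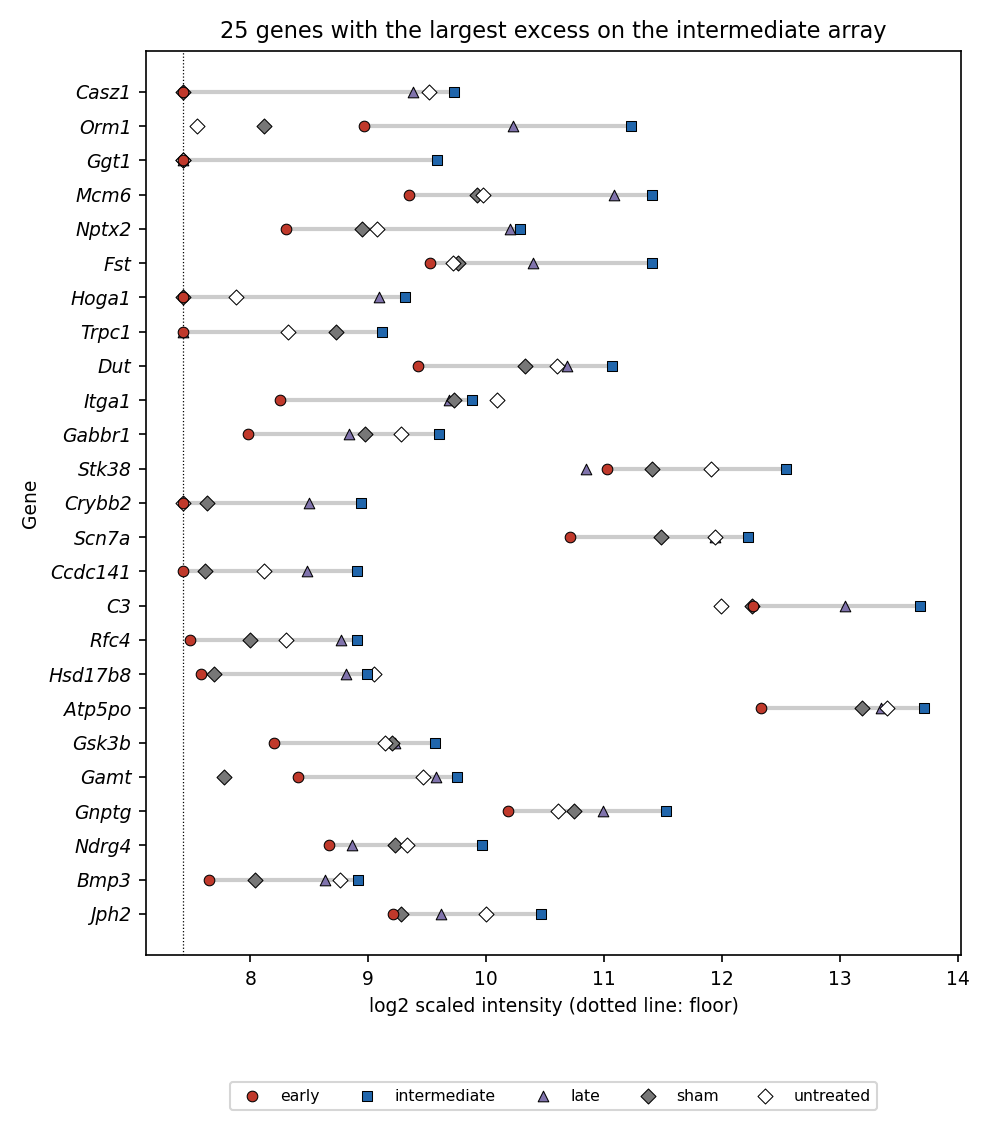
Log2 scaled intensity on all 5 arrays for the 25 genes with the largest excess on the intermediate over the early array; grey bars join both arrays and the dotted line is the floor. The blue intermediate points lie right of the red early points by 4.92-fold (a bound) for Casz1 and 3.69-fold for Fst, and the other 3 arrays are often spread between them.

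Cardiac muscle genes formed a further block. Of 16 cardiac muscle markers with a value, 3 were lower on the early array and 15 were below 0, with a median of -0.70. Tnni3, cardiac troponin I, read 2762 on the early and 5891 on the intermediate array, with 2164, 4800 and 9340 on the late, sham and untreated arrays. Myh6, the atrial myosin heavy chain, read 1004 and 2124, with 817, 1596 and 3115 on those arrays, and Actc1, cardiac actin, read 6428 and 12889, with 5085, 9361 and 17201. The order of the arrays was the same for all 3 on these probe sets, with untreated highest and late lowest. Another probe set of Tnni3 gave 1290 and 1739, a difference of -0.43. Those of Myh6 gave 396 and 621, a difference of -0.65, and 406 and 355, which went the other way with 0.20. None of these passed 2-fold. Summed over the 21 listed genes, the cardiac signal was 30139 on the early and 51930 on the intermediate array, and 23290, 43657 and 77290 on the late, sham and untreated arrays. Such genes are expressed in the muscle sleeve of rat pulmonary veins and in heart. How much of either each pool held was not known here, and their part in other results was not tested. In the smooth muscle list Actg2 (1012 and 2165) and Des (706 and 1496) were also lower, and the list median was -0.30. Its other members with a value were not called, from Acta2 at -0.48 to Tagln at 0.00.

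Housekeeping groups were shifted together by amounts below the threshold. Of 37 cytosolic ribosomal protein genes with a value, 35 were below 0, the median was -0.51 and none was called, with single values from -0.90 to 0.11. Quantile normalization brought that median to -0.19. The respiratory chain list had 28 of 32 below 0 and a median of -0.42. Within it Atp5po, a subunit of ATP synthase, read 5159 and 13457, 2.61-fold, and Vdac1, an outer membrane channel, was the 1 higher member with 942 and 416. Proteasome and ubiquitin genes had a median of -0.31, and glycolytic genes -0.37 with Aldoa higher and Aldoc lower. The reference genes had a median of -0.32, from Pgk1 at -0.90 to Polr2a at 0.97, which quantile normalization turned to 0.02. Ribosomal, respiratory chain and reference genes were thus lower on the early array after median scaling, by as much as some of the lists above, with the reference genes turned by quantile normalization. The actin gene Actb itself, on its brightest probe set, read 36729 and 45841.

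**Figure D5:**
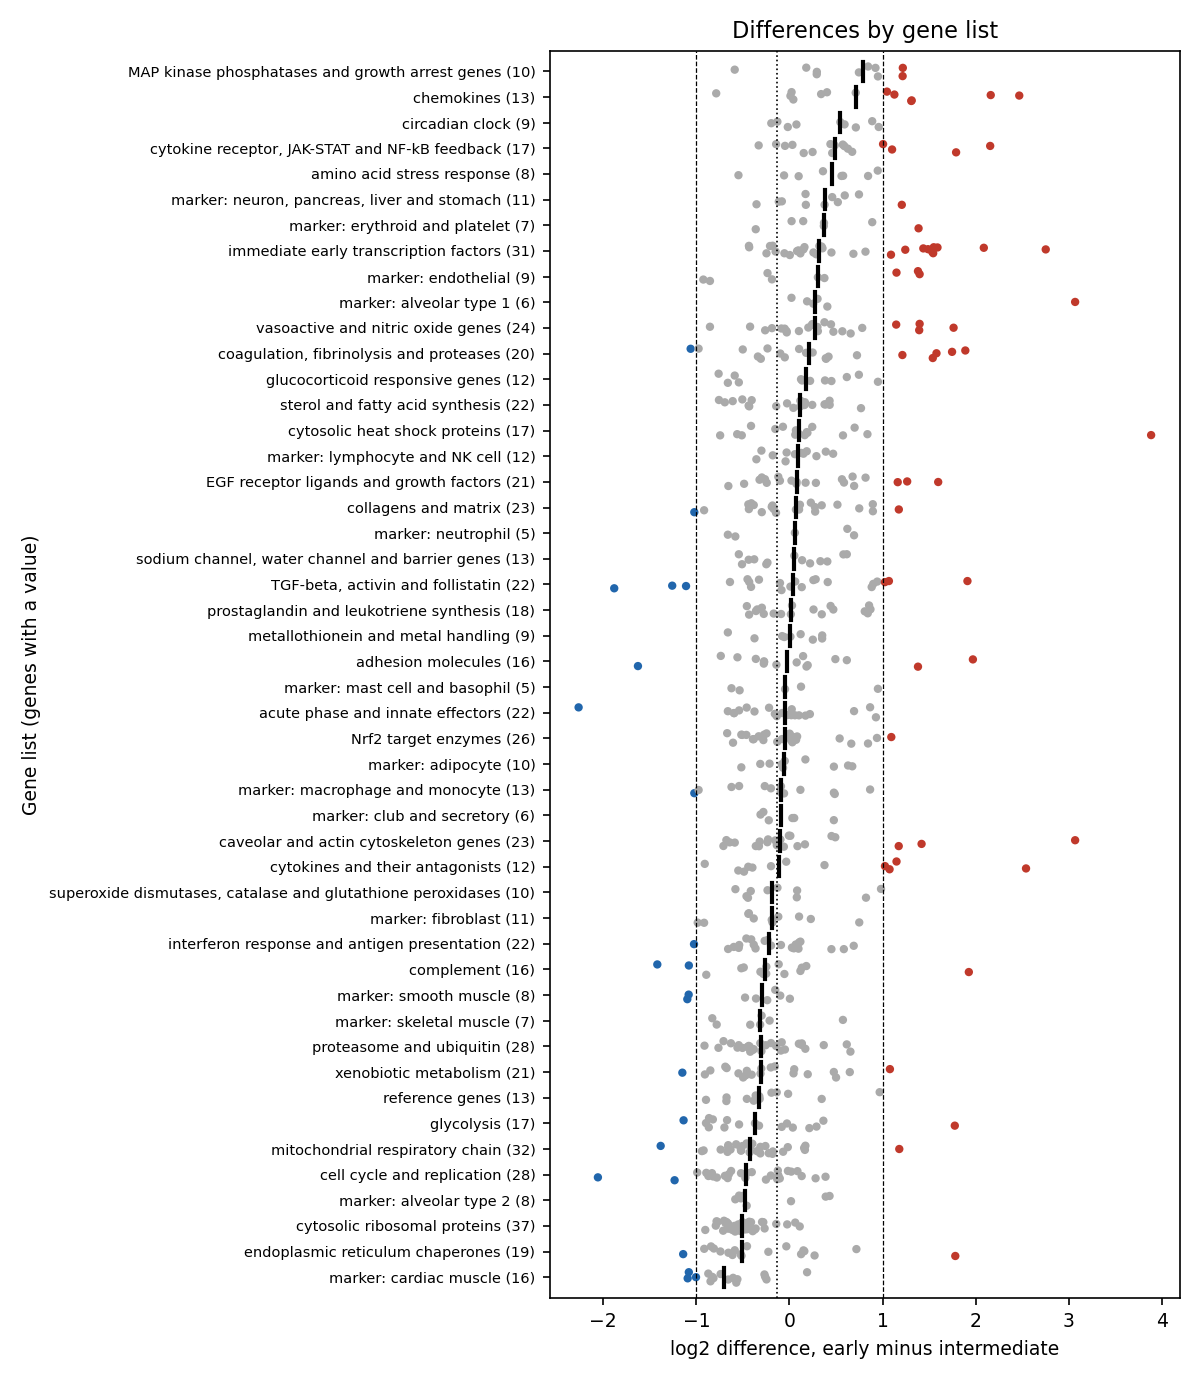
Each point is a gene with a value, grouped by list, with its log2 difference of early minus intermediate; black bars are list medians, dashed lines mark 2-fold and the dotted line the median of all genes at -0.13. Called genes are red or blue. Lists at the top, such as MAP kinase phosphatases (median 0.79) and chemokines (0.71), carry red points, and the cardiac markers lie lowest at -0.70. Medians of alveolar type 2 markers and reference genes turn positive under quantile normalization, and that of endoplasmic reticulum chaperones with the mean of all probe sets.

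Several lists gave no called gene, and the last named here gave some. The amino acid stress response had a median of 0.46 over 8 genes, with the transporter Slc7a1 at 881 and 457, a difference of 0.95. The circadian clock list had a median of 0.55 over 9 genes, from Dbp at -0.20 to Nr1d2 at 0.96, and of 0.18 with the mean of all probe sets. Each pool mixes 3 sampling times, and the hours of day were not known here. Sterol and fatty acid synthesis (0.12, 22 genes), prostaglandin and leukotriene synthesis (0.02, 18 genes), glucocorticoid responsive genes (0.18, 12 genes), sodium and water channel and barrier genes (0.05, 13 genes), metal handling (0.01, 9 genes) and superoxide dismutases, catalase and glutathione peroxidases (-0.18, 10 genes) had medians from -0.18 to 0.18. Collagens and matrix had 1 gene each way of 23 (0.07), xenobiotic metabolism 1 each way of 21 (-0.31), with Cyp1b1 higher at 1251 and 592 and Cyp4f6 lower at 610 and 1353, and interferon response and antigen presentation 1 lower of 22 (-0.22), the peptide transporter Tap1 with 1136 and 2312. Among adhesion molecules, with a list median of -0.03, Msn and Pecam1 were higher. Itga1, the collagen-binding integrin chain, was lower with 305 and 943, below both controls on the early array. Caveolar and actin cytoskeleton genes had 3 higher of 23 (-0.10), namely Cav1, Tpm4 (3176 and 1188, with 307 and 300 on its other probe set) and Actn4 (1449 and 643).

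Cell type markers gave few calls. Neutrophil markers had a median of 0.06 over 5 genes, and their summed intensity was 38280 on the early and 55681 on the intermediate array, and 43402, 24797 and 9243 on the late, sham and untreated arrays. Lcn2, which epithelium also makes, holds most of that sum, and the neutrophil genes Cxcr2, Mmp8, Defa5 and Itgam were under the floor on every array. S100a9 (2850 and 2737, against 1339 on sham and 980 on untreated) was at least 2-fold above both controls on both arrays. So was Padi4 (957 and 1432, against 413 and 458). S100a8 was so on the early array alone, and Cxcr1 (508 and 330, against 1033 and 428) on neither. Macrophage markers had 1 lower of 13, Spp1, osteopontin, with 613 and 1244, and Csf1r was under the floor on every array. Endothelial markers had 3 higher of 9, Pecam1 (1222 and 469), Edn1 and Lyve1 (1269 and 572), and a median of 0.31. Their summed intensity was 13363 on the early and 10317 on the intermediate array. On the late, sham and untreated arrays it was 12007, 11126 and 11475. The other way went 4 of the 9 without being called, Icam2 (under the floor and 328) and Nos3 (311 and 561) with differences of -0.92 and -0.85, and Thbd and Flt1 with -0.24 and -0.19. Alveolar type 2 markers had a median of -0.48 over 8 genes, with Sftpc, surfactant protein C, at 48085 and 71970. Sftpb was level with 35754 and 35343, and Fasn (4227 and 3228) and Scd (5296 and 3930) went the other way without being called. Alveolar type 1 markers had a median of 0.28 over 6 genes, with Cav1 as the sole call and Ager at 30010 and 26320. In the erythroid and platelet list Hbb, a beta globin, read 10501 and 4017, with 9118 on the sham array. The part of blood in the calls was not tested. Lymphocyte (0.09), mast cell (-0.05), fibroblast (-0.19), club cell (-0.10), ciliated (-0.18), skeletal muscle (-0.31) and adipocyte (-0.06) lists had no call. The list of neuron, pancreas, liver and stomach genes had 1 call, Apob, at 398 and under the floor. The lung markers Sftpc, Scgb1a1 and Ager were bright on all 5 arrays, with Scgb1a1 from 19738 to 25506.

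Of the 76 lower genes, 13 were at least 2-fold above both controls on the intermediate array with the early array in neither position. In 4 the early array was below both controls, and in 59 neither array was 2-fold from both. The intermediate array gave the highest of the 5 values in 53 of 76 (69.7%), against 29.7% of all genes with a value, and the early array the lowest in 49 (64.5%), against 25.3%. The late array lay nearer to the intermediate than to the early array in 50 of 76 (65.8%), against the 59.5% of all. In all, 1 of both arrays or both lay at least 2-fold outside both controls in 17 of the 76 lower and 62 of the 116 higher genes, a description of chosen genes.

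Genes with more than 1 probe set allow a check within the arrays. Among the higher genes 32 had another probe set with a value, in 28 at least 1 of these had the same direction, and in 17 another passed 2-fold as well. These were Bcl2l1, Cebpd, Cx3cl1, Cyp1b1, Errfi1, Fgfr1, Gadd45a, Hmox1, Ier3, Junb, Lyn, Myc, Olr1, Ppp1r15a, Rasl11b, Vegfa and Zfp36. All other probe sets with a value passed in 10 of the 32. Of the 17, Cebpd (281 and 446), Cyp1b1 (269 and 355) and Fgfr1 (under the floor and 275) also had a probe set that went the other way. For Zfp36 an EST probe set gave 3.01-fold and a coding sequence probe set 2.91-fold. For Cx3cl1 all 3 probe sets lay between 2.48-fold and 2.60-fold. Among the lower genes 29 had another probe set with a value, in 21 at least 1 had the same direction, and in 2, Mcm6 and Fst, another passed. Probe sets of a gene share the RNA and the array and are no replicates of the phase.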

How the data were processed

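The values are those of the deposited series table, a linear intensity for 8799 probe sets on each of 5 arrays. No source used here names the algorithm or software that made them. That the authors scaled the deposited intensity between arrays is read from the values, since the trimmed mean (2% off each end) was 1001.38 to 1001.63. The 59 control probe sets were left out of all counts, leaving 8740. A platform annotation gave 1 symbol for 7006 of them, several for 308 and none for 1426. Gene IDs of 6985 were found in a RefSeq table of GRCr8, which changed 0 symbols.

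Each array was scaled to the same median, with factors from 0.931 to 1.07 (deposited medians 262 to 301), floored at the 40th percentile and taken to log2. Where a gene had several probe sets, the brightest by mean log2 over all 5 arrays stood for it. This choice sees both arrays of the contrast. With 1 array per group the result is a fold with no test, and the number of arrays limits the precision. The 12 alternatives listed at the outset, and 1 added after seeing the data (no EST and no coding sequence probe sets), changed the scaling, the floor and the probe sets. The members, the 49 gene lists (842 of 1272 symbols on the array) and the rules were chosen with earlier results of these data known.

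Named genes were the 20 with the largest difference each way, up to 10 each way with at least 2 probe sets called in 1 direction, and per list up to 5 called members or, with none, the 3 with the highest mean. Other genes named, including members of a list that were not called, genes with a motif and the genes at the threshold, were chosen after their values were seen. The fold rule was tested on simulated data, with known changes set in genes well above the floor. The simulated noise was smaller than the spread between sham and untreated, so that test cannot give the error of the rule in these data. Python 3.11.15, pandas 2.3.3 and numpy 2.4.6 were used. Promoters, with motifs searched on both strands, came from a RefSeq table of GRCr8, and the 4 shown were chosen after their matches were seen.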

Additional observations from a re-analysis of the deposited data

Results flagged for a closer look

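Cav1 was at least 2-fold above both controls on the early array and at least 2-fold below both on the intermediate array, the sole gene among those called that lay on opposite sides of the controls. Its log2 difference of early minus intermediate was 3.07, from 2655 against 317, with the sham array at 808 and the untreated one at 783. Each side is 1 array, and the difference was not tested. No group held enough arrays to look for a sample apart from its group.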

How the results depend on the processing

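With 1 array per group no array could be left out. No paired analysis was possible because each group has 1 array and the result comes from no test. The counts of genes higher (116) and lower (76), of probe sets higher (274) and lower (120), and of genes 2-fold apart between sham and untreated (116) were recomputed under 12 other settings and 1 added after seeing the data. With the floor at the 20th percentile they were 254, 239, 585, 442 and 515, and at the 60th percentile 58, 37, 150, 52 and 26. At the lower floor the pair without dust gave more calls (515) than early against intermediate (493). EST probe sets alone gave 42, 35, 71, 55 and 49. Without them, 45 genes and 65 probe sets were lower and the pair without dust gave 74. Without EST and coding sequence probe sets, 43 genes were lower, 162 probe sets were higher, 61 were lower and that pair gave 65. The lower genes were 49 with the median log2 ratio set to 0 and 47 with the mean of all probe sets, and the pair without dust gave 66 where both arrays had to be above the floor. The cause was not tested, beyond the fewer features that a higher floor or a subset of probe sets leaves.

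Of the 93 named genes that were called, 83 kept their call under all 4 scalings. Actc1, Tap1, Spp1, Csf3, Ifngr1, C1s, Myh6, Des, Tnni3 and Actg2 lost it under at least 1. In 38 the call held under every setting that measured them. Directions turned with the probe set for Stat3 (-0.38 with the floor at the 20th percentile, with the probe set chosen on the other 3 arrays or with ESTs alone), Crybb2 (0.38 with that floor, that choice, without probe sets that can match several transcripts, or without EST and coding sequence ones), Cyp1b1 (-0.40) and Scn7a (0.85) without ESTs, Calcrl (-1.43) with ESTs alone, and Fgfr1 (-0.67) without probe sets that can match several transcripts. Gpx3, with -0.24 and no call, read 1.40 without ESTs. List medians turned under quantile normalization for reference genes (0.02) and alveolar type 2 markers (0.06), with the floor at the 60th percentile for neuron, pancreas, liver and stomach genes (-0.11), with the mean of all probe sets for endoplasmic reticulum chaperones (0.12), and with ESTs alone for xenobiotic metabolism (0.94) and glycolysis (0.16).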
